A study of Zea mays with 18 samples.

Results

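The transcripts of roots of the low-NUE maize inbred line T250 were compared between 4 d and 1 d of growth without N. NUE is N use efficiency, and T250 is the line that the study describes as low in it. The comparison takes 6 of the 18 arrays of the series, 3 arrays of T250 roots at 4 d and 3 of T250 roots at 1 d, chosen by the labels of the samples alone. Each array carried labelled RNA from the roots of 3 pooled seedlings of one of 3 growth experiments. The seedlings had germinated in the dark, stood for 48 h in an aerated CaSO4 solution and were then moved to a nutrient solution that lacked N. Both groups thus had no N in the solution at any time, and they differ in the time spent in it. The 3 arrays of T250 at 0 d, the start of this growth, entered the same fit, and the high-NUE line Lo5 at 4 d and 1 d serves for a short comparison at the end. No seedlings kept with N at 1 d or 4 d are among the samples used here, so longer lack of N and further growth of the seedling cannot be told apart. The labels do not say that the samples with one replicate number came from one growth experiment.

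N enters maize roots mostly as nitrate and ammonium through membrane transporters, nitrate by low- and high-affinity carriers, and is built into amino acids by way of glutamine. When N runs short a young plant lives on the reserves of its seed, and root growth, the uptake of other nutrients and water, cell wall synthesis and secondary metabolism are all known to be adjusted. Hormones such as auxin, cytokinin and jasmonate, together with transcription factors of the NAC, MYB, bHLH and WRKY families, carry much of this control.

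Levels are given as the log2 of the signal of a probe over the 75th percentile of its array, so that 0 is the brightness of a probe at that percentile and each step of 1 is a doubling. On the 6 arrays between 29378 and 32446 of the 39372 transcripts were well above background, and between 4.12% and 12.2% of the spots carried a mark for an uneven or outlying spot and were left out. The 4 d arrays of replicates 1 and 2 had a Pearson r of 0.974 with each other over the transcripts, whereas the 4 d array of replicate 3 had 0.898 and 0.899 with them and 0.949 with the 0 d array of replicate 3. The 3 arrays of 1 d had between 0.929 and 0.945 with each other, and the 1 d array of replicate 1 had 0.981 with the 0 d array of replicate 1, which lies on the same slide. Results are therefore also given without 4 d replicate 3 and without 1 d replicate 1. Of 1118 transcripts that separated the lines at 0 d by at least 3 on the log2 scale, 16, 28 and 22 lay on the Lo5 side on the 4 d arrays of T250, and 9, 146 and 103 on the 1 d arrays. The median of all 6 arrays was that of T250. The array labelled Lo5 1 d replicate 3 had only 78 of the 1118 on the Lo5 side, so that it goes against its label, and it was left out where Lo5 is given.

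**Figure D1:**
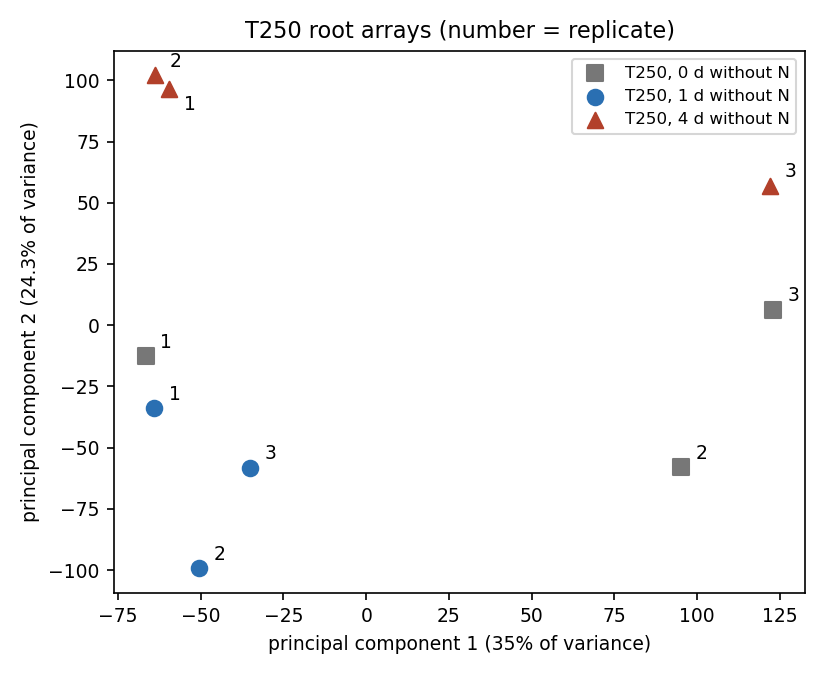
The 9 T250 arrays on the first pair of principal components of the log2 levels (axes give the share of variance, points are arrays, numbers are replicates, colours are days). The 4 d array of replicate 3 lies at 122 on the first component, near 0 d replicates 2 and 3, while the other 4 d arrays lie at −59.5 and −63.9.

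The tissue was checked by markers. The 14 root markers, among them the root-preferential O-methyltransferase zrp4, the silicon channel Lsi1 and the crown root regulator rtcs, were well above background for 10 to 12 members at 4 d and 12 to 13 at 1 d. Their summed level, in units of the 75th percentile, was 21.2, 27.7 and 26.4 at 4 d, and 60.3, 40.4 and 29.5 at 1 d, which do not overlap. Unlike the tests, all marker sums here include marked spots. Among these are the iron transporter ys1 on all 1 d arrays, and zrp4 on 4 d replicate 1 and 1 d replicate 3. Whether the days stay apart without marked spots was not tested. The 39 kernel markers stayed between 1.29 and 2.08 at 4 d and between 1.37 and 1.92 at 1 d, and the 21 markers of green tissue between 20.7 and 33.5 at 4 d and between 22.5 and 34 at 1 d. Of the 5 green tissue markers tested only rbcS, the small subunit of Rubisco, passed the threshold given below. It was at −5.76, −5.17 and −4.20 at 4 d, and at −2.44, −1.0 and −2.74 at 1 d. In whole roots fewer cells of a type and less RNA per cell cannot be told apart, and the part of tissue make-up in the results below was not tested.

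The methods called a transcript at an unadjusted p not above 0.01 with a change of 1 or more on the log2 scale. Here limma took the place of the t-test of the methods. By this threshold 614 of 26367 transcripts were upregulated (2.33%) and 1013 downregulated (3.84%) at 4 d relative to 1 d, 6.17% in all. The t-test at the same cutoffs called 923, of which 793 were shared, 48.7% of the 1627 that limma called. The words rose and fell are used below for transcripts past this threshold in limma, whose adjusted p runs up to 0.135. After Benjamini-Hochberg adjustment limma left 19 transcripts (0.0721%), 9 higher (0.0341%) and 10 lower (0.0379%). An unadjusted p in limma below the usual 0.05 level was given to 5367 transcripts. The median size of the log2 ratio was 1.59 among the upregulated and −1.52 among the downregulated transcripts. A size of 2 or more on the log2 scale was reached by 165 upregulated and 269 downregulated transcripts. The median over all transcripts was −0.08. The share of upregulated transcripts among those past the threshold was 37.7%, and it depends on the scaling. Quantile normalization gave 778 up- and 824 downregulated (48.6% higher), and normexp background correction gave 252 and 167 (60.1% higher) with a median over all transcripts of 0.38.

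**Figure D2:**
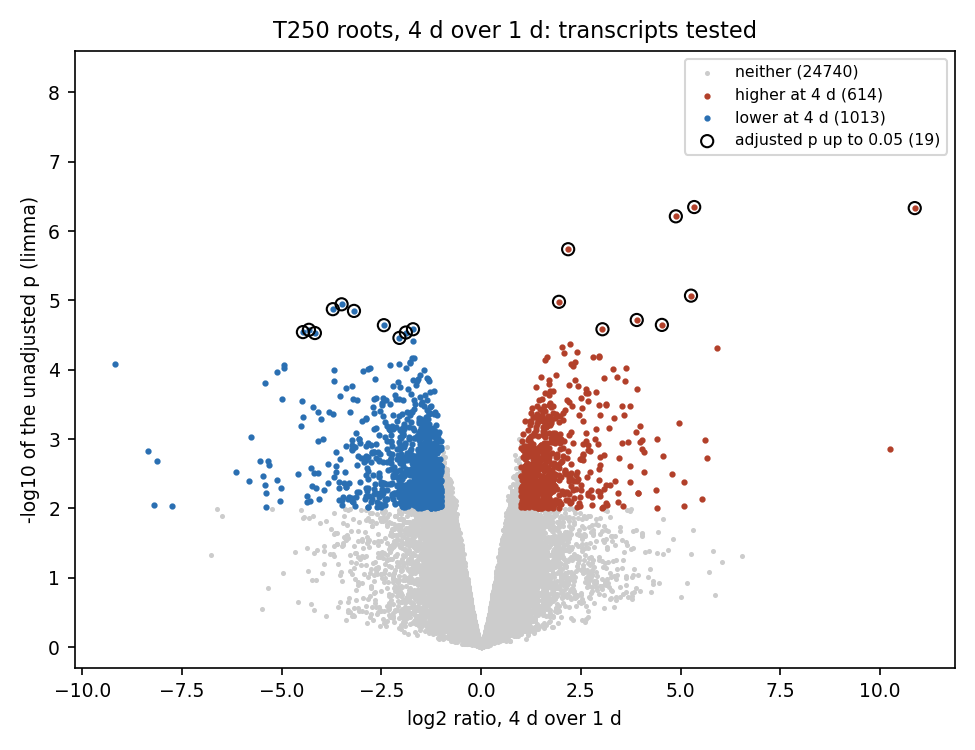
Log2 ratio of 4 d over 1 d (x axis) against −log10 of the unadjusted p in limma (y axis) for the 26367 transcripts tested. The 614 transcripts past the methods' threshold and higher at 4 d are red, the 1013 lower ones blue, and black rings mark the 19 with an adjusted p of up to 0.05.

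Single arrays carried part of these calls. From the 1627 calls, 1074 (66%) passed the threshold without 4 d replicate 3, where the total was 1773, and 1045 (64.2%) passed it without 1 d replicate 1, where the total was 1624. With both left out 876 (53.8%) passed it. All 1627 kept their sign in these fits. They were chosen by the size of their ratio on mostly the same arrays, so this is no test of their direction. After adjustment the 19 became 61 without 4 d replicate 3 and 182 without 1 d replicate 1, but 0 without 4 d replicate 1 and 1 without 4 d replicate 2. A rule chose 113 of the transcripts called for description, and 70 of these held in each of the 6 fits that left out 1 array. Below, the number of these fits that kept a call is given where it was under 6, and calls of single transcripts given with no such number held in all 6.

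Among calls after adjustment that were unmarked, well above background and non-overlapping on all 6 arrays, GRMZM2G168747_T01 had the largest increase. It is described as a natural resistance-associated macrophage protein 1, a member of a family of metal transporters. It was at 4.05, 3.58 and 3.37 at 4 d, and at −1.87, −1.07 and −0.69 at 1 d. The groups lie far apart, and the ratio was 29.4-fold (log2 4.88, standard error 0.36, adjusted p = 0.0054). At 0 d it was at −0.54, −1.28 and −1.05, close to the levels of 1 d. GRMZM2G078465_T01, described as UDP-glycosyltransferase 74 F1, an enzyme that joins sugars to small molecules such as salicylic acid in Arabidopsis, was at 2.35, 1.82 and 0.94 at 4 d, and at −3.49, −2.47 and −2.53 at 1 d (23.2-fold, standard error 0.54 on the log2 scale, adjusted p = 0.0434). GRMZM2G061929_T01, which carries no name or description here, was at 0.58, −0.08 and 1.2 at 4 d, and at −3.45, −3.48 and −3.07 at 1 d (14.9-fold, adjusted p = 0.0434).

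The replicates lay close together for a pair of signalling transcripts. The NSP-interacting kinase 1 transcript GRMZM2G349665_T01, for a receptor-like kinase, was at 1.57, 1.62 and 1.75 at 4 d, and at −0.60, −0.47 and −0.54 at 1 d (4.54-fold, adjusted p = 0.0121). The transcript described as auxin response factor 2, GRMZM2G352159_T01, was at 0.42, 0.19 and 0.41 at 4 d, and at −1.77, −1.51 and −1.56 at 1 d (3.87-fold, adjusted p = 0.0415). Auxin response factors bind promoters of auxin-controlled genes. For both, the levels of 0 d lay between those of the other days, at 0.08, −0.04 and 0.12 for the kinase and at −0.59, −0.93 and −0.59 for the auxin response factor.

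Another 4 increases passed the adjustment outside the rule for named transcripts, and are named after their values were seen. GRMZM2G451308_T01 was at −3.89, −3.79 and −3.58 at 4 d, and at −6.97, −6.00 and −7.41 at 1 d, where only 1 array was well above background (log2 ratio 3.04, adjusted p = 0.0434). The other three had the same form. GRMZM2G370715_T01 was at 2.32, 2.54 and 2.92 at 4 d, and at −8.69 and −7.85 on the unmarked 1 d arrays of replicates 2 and 3. Both of these 1 d spots were not well above background, so that only a bound can be given, at least 776-fold higher at 4 d (adjusted p = 0.0054). Its spot on the 1 d array of replicate 1 was marked and left out, and it stood at 1.83, close to the 4 d arrays. GRMZM2G435445_T01 (log2 ratio 5.34, adjusted p = 0.0054) had a marked 1 d spot of replicate 1 at 2.07 beside −2.52 and −2.95, and GRMZM2G022619_T01 (5.26, adjusted p = 0.0415) one at 0.88 beside −5.03 and −4.67. With the marked spot the days overlap for GRMZM2G022619_T01. Of 55 transcripts that lay on the Lo5 side on the 1 d arrays of both replicate 2 and replicate 3, 28 were tested, 9 passed the threshold and 2 the adjustment. Leaving out all transcripts that separated the lines gave 16 calls after adjustment and 1581 past the methods' threshold.

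Among the decreases with unmarked spots on all 6 arrays, GRMZM2G399961_T01, which has no name here, was at −2.50, −3.48 and −2.39 at 4 d, and at 0.67, 1.97 and 1.93 at 1 d (19.9-fold lower, log2 ratio −4.32, standard error 0.47, adjusted p = 0.0434). The pectin methylesterase 61 transcript GRMZM2G158240_T01, for an enzyme that removes methyl groups from wall pectin, was at −3.61, −4.05 and −3.85 at 4 d, and at −1.80, −1.14 and −1.26 at 1 d (5.41-fold lower, adjusted p = 0.0434). Both were higher at 1 d than at 0 d on each array of unmarked spots, where the pectin methylesterase was at −2.15, −2.70 and −2.90. GRMZM2G451037_T01, for a SAUR-like auxin-responsive protein, was at −6.02, −5.44 and −5.38 at 4 d, and at −3.50, −3.68 and −3.51 at 1 d (4.15-fold lower, adjusted p = 0.0483). The cell division control 6 transcript GRMZM2G007659_T01, whose protein loads the replicative helicase on DNA, was at −3.86, −3.70 and −3.65 at 4 d, and at −1.98, −1.96 and −2.14 at 1 d (3.27-fold lower, adjusted p = 0.0434). The SAUR-like probe was dim, and its log2 ratio took the opposite sign with normexp background correction.

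Among all transcripts called, 73 that were lower and 31 that were higher at 4 d were below background on all 3 arrays of the day on which they were low. Such probes entered the test only through the day on which they were bright, so the filter set their direction. The share of such probes among all transcripts tested is not given here, and the counts are not read as a difference between the days. For such transcripts only a bound can be given. It sets the mean of the bright day against the mean, over the dim arrays, of the higher of the lowest signal well above background and the own signal of the probe. The peroxidase transcript GRMZM2G150731_T01 was at −3.73, −4.36 and −4.61 at 1 d and not well above background at 4 d, at least 5.09-fold lower (adjusted p = 0.0415). AC209819.3_FGT003 was at least 7.61-fold lower (adjusted p = 0.0434) and the GDSL-like lipase GRMZM2G101117_T01 at least 2.25-fold lower (adjusted p = 0.0415). With normexp the log2 ratios of these 3 took the opposite sign, at 0.35, 0.24 and 0.53. AC209819.3_FGT003 was also below background at 0 d, at −7.73, −8.43 and −8.54, so that it was measured at 1 d alone. In the other direction Myb36, a MYB factor (GRMZM2G056407_T01), was at −3.74, −3.36 and −4.25 at 4 d and not well above background at 1 d, at least 7.41-fold higher (adjusted p = 0.0577). The last 3 transcripts lower after adjustment fall outside the rule and are dim at 4 d. They are GRMZM2G099678_T01 of the phosphorylase superfamily (log2 ratio −4.17), AC197705.4_FGT008 with a domain of unknown function (−3.50) and GRMZM2G305080_T01 (−1.89), well above background on 2, 1 and 1 of the 4 d arrays. With normexp AC197705.4_FGT008 was at 0.25 and GRMZM2G305080_T01 at 0.53.

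Most listed transcripts for the supply of nutrients did not pass the threshold between 4 d and 1 d, and those that did were lower at 4 d, unlike the NRAMP-like transcript above, which the symbol lists do not hold. Of 13 members tested for nitrate transport and N assimilation 0 rose and 2 fell, beside 2.33% that rose and 3.84% that fell among all transcripts, the shares against which each list count below can be read, with a median log2 ratio of −0.31 beside −0.08 over all transcripts. The high-affinity nitrate transporter nrt2.2 (GRMZM2G010251_T01) was at −8.35, −5.61 and −3.77 at 4 d, and at −0.36, 0.81 and −1.56 at 1 d. It was thus lower on each 4 d array than on any 1 d array, by a log2 ratio of −5.54 (46.5-fold, standard error 1.19, adjusted p = 0.0849). On 1 of the 4 d arrays it was not well above background. Its partner protein NAR2.1 (GRMZM2G179294_T01), which high-affinity nitrate transporters need for their function, was at −4.84, −3.67 and −0.71 at 4 d, and at 1.00 and −0.55 on the unmarked arrays of 1 d. This log2 ratio of −3.30 did not pass the threshold (adjusted p = 0.239). NRT1.2 (GRMZM5G811593_T01), a carrier of the low-affinity family, was at −0.67, −0.42 and 0.23 at 4 d, and at 1.04, 0.81 and 0.55 at 1 d (2.12-fold lower, adjusted p = 0.126), and this call was kept in 1 fit, that without 4 d replicate 3.

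The nitrate transporter 1.5 transcript GRMZM2G044851_T01, whose relative in Arabidopsis moves nitrate to the xylem, had a different course. It was at 4.00, 4.15 and 3.87 at 4 d, and at 3.72, 3.82 and 3.89 at 1 d, and the days overlap (log2 ratio 0.20, standard error 0.22, adjusted p = 0.641). At 0 d it was at 0.94, 0.65 and 0.36. The step between 0 d and 1 d had a log2 ratio of 3.16 (adjusted p = 0.00997). The glutamine synthetase 2 transcript GRMZM2G098290_T01 was well above background on 1 of the 4 d and 0 of the 1 d arrays and was not tested.

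Of 9 phosphate transporters 1 fell, pht9 (GRMZM2G070087_T01), at −5.04, −3.63 and −2.94 at 4 d, and at 3.65 and −0.56 on the unmarked arrays of 1 d, a log2 ratio of −5.42 (adjusted p = 0.108) that misses the threshold without 1 d replicate 2 and without 4 d replicate 1 or 2. The phosphate transporter pht3 (GRMZM2G045473_T01) was at −5.30, −5.94 and −3.55 at 4 d, and at −7.20, −9.21 and −6.25 at 1 d, where 1 array was well above background (log2 ratio 2.63, adjusted p = 0.148). Of 18 potassium transporters 1 fell, HAK21 (GRMZM2G438960_T01), at −8.40, −8.36 and −3.38 at 4 d, and at −3.02, −1.72 and −2.26 at 1 d. Its 4 d level rests on 1 array well above background, that of replicate 3 (log2 ratio −4.38, adjusted p = 0.126), and the call was kept in 1 fit, that without this array.

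In the supply of iron and other metals 2 of 7 fell and 0 rose, and both make the iron-binding phytosiderophores of grasses. The nicotianamine synthase nas1 (GRMZM2G385200_T01) was at −8.30, −3.04 and −5.63 at 4 d, and at 3.85 and 1.26 on the unmarked arrays of 1 d (log2 ratio −8.21, standard error 2.21, adjusted p = 0.129). Its spot on the 4 d array of replicate 1 was not well above background, so that the size of this ratio is uncertain. The nicotianamine aminotransferase naat1 (GRMZM2G096958_T01) was at −4.69, −5.63 and −6.18 at 1 d and not well above background at 4 d, at least 2.04-fold lower (adjusted p = 0.117), while with normexp its log2 ratio was 0.51. Both calls were kept in 2 fits and were lost without 4 d replicate 3, 4 d replicate 1 or 1 d replicate 1. The iron transporter transcript ys1 (GRMZM2G156599_T01) had marked spots on all 1 d arrays and was not tested. It was at 0.46 and 0.07 on the unmarked 4 d arrays. nas1, nrt2.2 and ys1 also stand in the list of root markers, whose summed level, with marked spots included, was lower at 4 d.

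**Figure D3:**
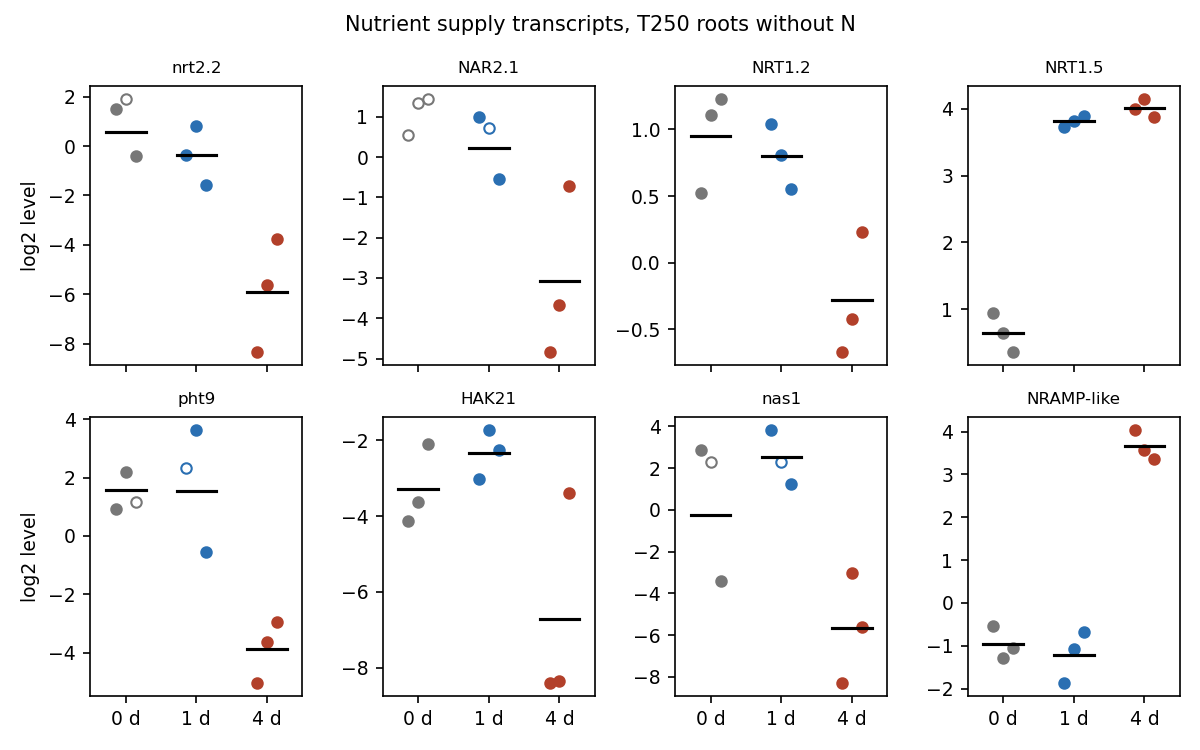
Log2 level over the 75th percentile of the array (y axes, which differ between panels) of 8 nutrient supply transcripts on each T250 array at 0 d, 1 d and 4 d. Points are arrays in replicate order, open points are marked spots left out of the fit, and lines are means of the unmarked spots. nrt2.2, pht9 and nas1 are lower on each 4 d array than on any 1 d array, NRT1.5 lies between 3.72 and 4.15 on all arrays of both days, and the NRAMP-like transcript is high at 4 d alone.

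Aquaporins carry water across the plasma membrane (PIP) and the vacuolar membrane (TIP). Of 21 members tested 5 fell and 0 rose, beside 3.84% that fell and 2.33% that rose among all transcripts, with a median log2 ratio of −0.60. The abundant TIP2-2 (GRMZM2G056908_T01) was at 6.25, 6.30 and 6.24 at 4 d, and at 8.17, 7.23 and 7.51 at 1 d (2.58-fold lower, adjusted p = 0.0764). PIP2-4 (GRMZM2G154628_T01) was at 3.54, 3.03 and 4.34 at 4 d, and at 6.12, 5.63 and 5.29 at 1 d (4.12-fold lower, adjusted p = 0.0756). The days do not overlap for either. PIP2-3 had a log2 ratio of −3.18 and was lost without 1 d replicate 1, PIP2-2 had −1.48 (kept in 2 fits) and PIP1-1 −1.99 (kept in 1). Without 1 d replicate 1 the number that fell was 2, and without 4 d replicate 3 it was 4. With the t-test it was 1. With normexp background correction 5 passed the threshold as lower, but the list median was 0.35, beside 0.38 over all transcripts. The probes may share signal from close copies within the family.

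Several transcripts of the growing cell wall that the text of the study names as lower without N fell. The study chose them with the same 4 d arrays, so their fall is not independent of that choice. The counts of the symbol lists at the end of this paragraph do not rest on it. The xyloglucan endotransglucosylase/hydrolase 32 transcript GRMZM2G388684_T01, for an enzyme that cuts and rejoins wall xyloglucan, was at 1.42, 0.41 and 1.07 at 4 d, and at 2.69, 2.89 and 3.53 at 1 d (4.20-fold lower, adjusted p = 0.0656). The expansin B2 transcript GRMZM2G094990_T01, for a wall-loosening protein, was at 1.34, 0.81 and 1.54 at 4 d, and at 2.44, 3.25 and 3.58 at 1 d (log2 ratio −1.86, adjusted p = 0.0691). These were lower on all 4 d arrays than on any 1 d array, and their 0 d levels of 2.82 to 3.41 lay with those of 1 d. The cellulose synthase 6 transcript GRMZM2G082580_T01 had a log2 ratio of −1.16 (adjusted p = 0.0691) and the pectin lyase-like GRMZM2G455564_T01 of −1.71 (adjusted p = 0.0503), which normexp reversed. Of the 11 expansins listed by symbol 1 fell, expB4 (kept in 1 fit), and the median was −0.85. Of 7 cellulose synthases and of 9 endoglucanases listed by symbol, 0 passed the threshold in either direction.

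Some transcripts of class III peroxidases, which couple phenolic groups in the wall, had large decreases. PER66 (GRMZM2G133475_T01) was at −2.88, −4.01 and −2.83 at 4 d, and at 0.29, 2.35 and 2.46 at 1 d (30.8-fold lower, adjusted p = 0.0542), with 0.10, 0.06 and −1.60 at 0 d. GRMZM2G089982_T01 was at −0.25, −1.30 and −0.02 at 4 d, and at 2.31, 1.94 and 2.55 at 1 d (log2 ratio −2.79, adjusted p = 0.0542). GRMZM2G138450_T01 was at least 11.7-fold lower at 4 d (adjusted p = 0.0756), where no array was well above background. GRMZM2G089982_T01 and GRMZM2G138450_T01 are known as peroxidases only from descriptions in the study, which cover transcripts that it called. Unnamed peroxidases that did not change could thus not be seen here. Of the 4 members listed by symbol only PER66 fell, and their median was −0.37.

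Enzymes of monolignol synthesis, the path to lignin, were split. The cinnamoyl-CoA reductase transcripts GRMZM2G017285_T01 and GRMZM2G146031_T01 had log2 ratios of −2.83 (adjusted p = 0.0844) and −3.39 (adjusted p = 0.109, lost without 1 d replicate 1 and without 4 d replicate 1 or 2), and the hydroxycinnamoyltransferase (HCT) transcript GRMZM2G178769_T01 of −2.85 (adjusted p = 0.0542). The last was at −4.28, −3.20 and −3.40 at 4 d, and at −0.44, −1.04 and −0.85 at 1 d. A further HCT transcript, GRMZM2G089698_T01, was at 2.01, 1.65 and 2.04 at 4 d, and at −1.49, 1.30 and 2.57 at 1 d, and it did not pass the threshold (log2 ratio 1.11, adjusted p = 0.527). The alcohol dehydrogenase cad1 (GRMZM2G046070_T01) had −0.42 (adjusted p = 0.708). Of the 16 laccases and lignin enzymes listed by symbol 0 passed the threshold, with a median of −0.58.

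Flavonoid and anthocyanin genes had the lowest median of the 46 lists. Of 12 members tested 3 fell and 0 rose, 11 had a negative log2 ratio, and the median was −1.48. With normexp the median was −0.39. The bHLH regulator of anthocyanin synthesis r1 (GRMZM5G822829_T01) was at −2.53, −0.70 and −0.24 at 4 d, and at 0.22, 5.16 and 4.28 at 1 d (log2 ratio −4.38, standard error 1.22, adjusted p = 0.118). At 1 d it was thus high on the arrays of replicates 2 and 3, and its call, kept in 2 fits, was lost without either of them and without 4 d replicate 1 or 2. At 0 d it was at 0.27, −0.33 and −1.45. Chalcone isomerase chi1 (GRMZM2G155329_T01), an early enzyme of the path, was at 0.72, −0.44 and 1.04 at 4 d, and at 1.76, 2.09 and 1.73 at 1 d (2.68-fold lower, adjusted p = 0.107, kept in 2 fits). The MYB regulator p1 (GRMZM2G084799_T01) had a log2 ratio of −1.46 (kept in 1 fit), against 0.09 with normexp. The anthocyanin glucosyltransferase bz1 (GRMZM2G165390_T01) averaged 1.98 at 4 d and 5.41 at 1 d, and did not pass the threshold.

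Of 10 terpene synthases 2 fell and 0 rose. tps1 (GRMZM2G049538_T01), also named as a kaurene synthase, was at −5.71, −5.55 and −5.20 at 4 d, and at −1.51, −1.50 and 1.52 at 1 d (31.8-fold lower, adjusted p = 0.0656). At 0 d it was at −3.49, −5.38 and −4.93, so that it was highest at 1 d. Among 15 lipoxygenases and enzymes of jasmonate synthesis, lox1 (GRMZM2G156861_T01) fell, at 3.36, 2.78 and 1.89 at 4 d, and at 5.18, 5.03 and 5.27 at 1 d (5.61-fold lower, adjusted p = 0.066), and 0 rose.

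The TIFY family includes the JAZ proteins, which hold back jasmonate-responsive genes. Of 16 tested 4 rose and 0 fell, 13 had a positive log2 ratio, and the median was 0.90. TIFY10 (GRMZM2G145458_T01) was at 4.24, 3.98 and 4.30 at 4 d, and at 2.24 and 2.81 on the unmarked 1 d arrays (3.13-fold, adjusted p = 0.0784). TIFY2/TIFY3 (GRMZM5G838098_T01) was at −1.68, −1.19 and −1.38 at 4 d, and at −4.05, −3.62 and −2.54 at 1 d (3.95-fold, adjusted p = 0.0823). TIFY18 and TIFY15 had log2 ratios of 1.02 (kept in 3 fits) and 1.30 (kept in 1). With both arrays that stand apart left out 1 of the 16 passed the threshold and the median was 0.46.

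**Figure D4:**
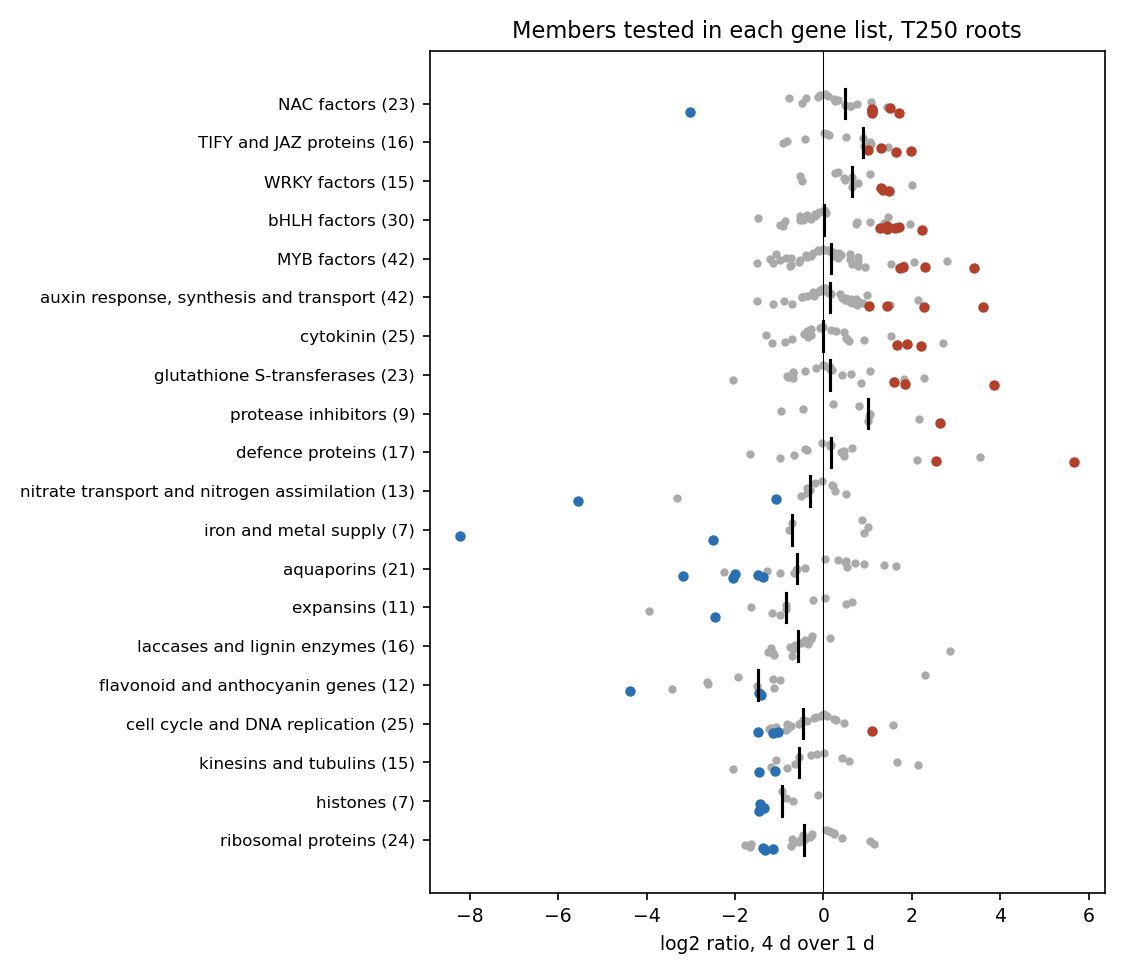
Log2 ratio of 4 d over 1 d (x axis) of the members tested in 20 of the 46 gene lists, chosen after their values were seen and set in 2 blocks by the direction of most calls or the median (rows, number tested in brackets). Red points rose and blue points fell at the methods' threshold, grey points passed it in neither direction, and black bars are list medians. In the upper 10 lists the points that passed are red except for 1 NAC factor, and in the lower 10 they are blue except for 1 cell cycle gene, a split that follows from this choice, with medians between −1.48 for the flavonoid genes and 1.02 for the protease inhibitors.

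Listed auxin transcripts that passed the threshold were higher at 4 d. Of 42 members of auxin response, synthesis and transport listed by symbol 4 rose and 0 fell, with a median of 0.14. The Aux/IAA repressor AUX36 (GRMZM2G359924_T01) was at −2.0, −1.41 and −1.54 at 4 d, and at −5.07, −5.96 and −4.77 at 1 d (12.2-fold, adjusted p = 0.0577). The auxin carrier PIN5c (GRMZM2G040911_T01) was at 0.64, −0.11 and 0.61 at 4 d, and at −1.80, −1.37 and −2.48 at 1 d (4.81-fold, adjusted p = 0.066). AUX18 and ARF28 had log2 ratios of 1.43 and 1.04, the second kept in 2 fits. GRMZM2G017193_T01, for a flavin-binding monooxygenase like the YUC enzymes that make auxin in Arabidopsis, was at 0.36, 0.15 and −0.82 at 4 d, and at −2.72, −2.88 and −3.58 at 1 d (7.76-fold, adjusted p = 0.0542). Each of the transcripts with levels given here was higher on all 4 d arrays than on any 1 d array.

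Of 25 cytokinin transcripts 3 rose and 0 fell, with a median of 0.00. Both cytokinin oxidases among them break the hormone down. cko2 (GRMZM2G050997_T01) was at −0.41, −1.36 and −1.06 at 4 d, and at −2.85, −3.68 and −2.91 at 1 d (4.61-fold, adjusted p = 0.0608), and CKX4b (GRMZM2G024476_T01) was at 1.55, 2.71 and 2.60 at 4 d, and at 0.13, 0.53 and 0.52 at 1 d (3.71-fold, adjusted p = 0.0691). The third, the phosphotransfer protein HP3, had a log2 ratio of 1.67. Without 1 d replicate 1 another 2 cytokinin transcripts fell. Of 34 abscisic acid transcripts 2 rose (5.88%, beside 6.17% of all transcripts called in either direction), the receptor PYL11 and the phosphatase PP2C25, with log2 ratios of 1.98 and 1.23. Each call was kept in 1 fit and lost without 4 d replicate 3. Of 3 gibberellin transcripts the biosynthetic oxidase d3 (GRMZM2G093195_T01) rose by 1.31 (adjusted p = 0.0877).

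Transcription factors listed by symbol that passed the threshold were mostly higher at 4 d. Of 23 NAC factors 6 rose and 1 fell, with a median of 0.48. NAC5 (GRMZM2G162739_T01) was at 0.63, 0.82 and 0.24 at 4 d, and at −0.81, −1.09 and −1.49 at 1 d (3.24-fold, adjusted p = 0.0577), with −0.98, −1.02 and −1.15 at 0 d. The exception NAC115 (GRMZM2G069047_T01) was not well above background at 4 d and at least 6.52-fold lower (adjusted p = 0.0847), but with normexp its log2 ratio was 0.35 and 0 NAC factors fell. Without 4 d replicate 3 only 1 NAC factor rose. Of 15 WRKY factors 3 rose and 0 fell, and 13 had a positive ratio. WRKY30 (GRMZM2G143204_T01) was at 2.03, 2.25 and 1.99 at 4 d, and at 0.55, 0.73 and 0.51 at 1 d (2.82-fold, adjusted p = 0.0577).

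Of 30 bHLH factors listed by symbol 6 rose and 0 fell, while their median was 0.02, with 16 positive and 14 negative log2 ratios. Without 4 d replicate 3 or without 1 d replicate 1 the number that rose was 3. This list does not hold the bHLH regulator r1, which fell (log2 ratio −4.38, kept in 2 fits). Of the listed factors bHLH123 (GRMZM2G369629_T01) had the largest increase, at −2.04, −2.45 and −2.30 at 4 d, and at −5.08, −4.82 and −3.61 at 1 d (4.73-fold, adjusted p = 0.0749). Of 42 MYB factors listed by symbol 4 rose and 0 fell. Myb36, MYB134, MYBR45 and MYB139 rose by log2 ratios of 3.40, 2.29, 1.81 and 1.74, of which MYB134 was kept in 2 fits. This list does not hold the MYB regulator p1, which fell (log2 ratio −1.46, kept in 1 fit). Nor does it hold the myb domain protein 112 transcript GRMZM2G134279_T01, which rose (1.82, kept in 2 fits). The GRAS factor GRAS76 (GRMZM2G028438_T01), described as SCARECROW-like 8, was at 1.60, 1.60 and 1.86 at 4 d, and at −0.08, −0.19 and −0.89 at 1 d (4.21-fold, adjusted p = 0.0542). The TCP factor GRMZM2G120151_T01 was at −4.96, −4.89 and −4.64 at 4 d and not well above background at 1 d, at least 3.59-fold higher (adjusted p = 0.0738). Of 27 EREB factors 1 rose, EREB197 (kept in 3 fits), and of 8 LBD factors 0 passed the threshold. The LOB domain-containing protein 38 transcript GRMZM2G177110_T01, whose relative in Arabidopsis represses N-responsive genes, was at 2.92, 2.96 and 3.24 at 4 d, and at 3.77, 3.60 and 2.77 at 1 d (log2 ratio −0.34, adjusted p = 0.558), and the days overlap.

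**Figure D5:**
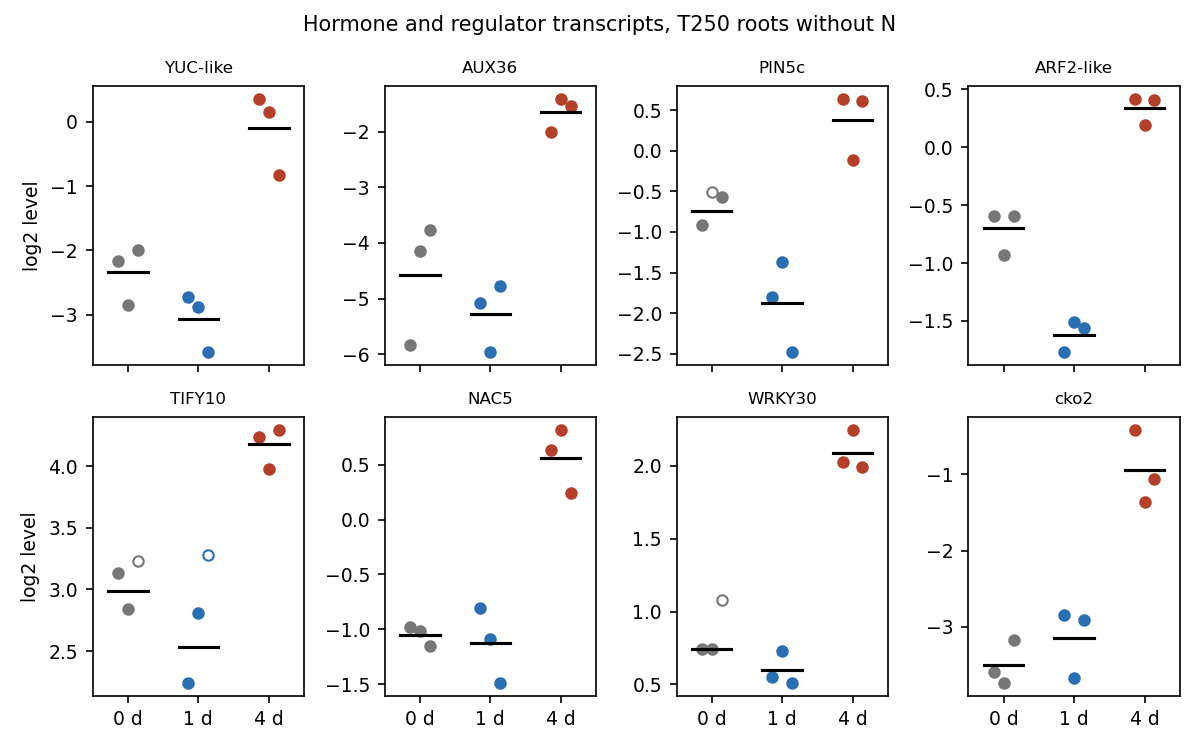
Log2 level over the 75th percentile of the array (y axes, which differ between panels) of 8 hormone and regulator transcripts on each T250 array at 0 d, 1 d and 4 d. Points, open points and lines are arrays, marked spots and means as in the plot of the nutrient transcripts. In each panel the unmarked 4 d arrays lie above all 1 d arrays, for example from 1.99 to 2.25 against 0.51 to 0.73 for WRKY30.

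Listed transcripts of growing and dividing cells were lower at 4 d where they passed the threshold, with 1 exception. Of 25 cell cycle and DNA replication members 3 fell, 1 rose and the median was −0.47. The sliding clamp pcna2 (GRMZM2G108712_T01) was at −2.82, −2.32 and −2.17 at 4 d, and at −1.29, −1.44 and −1.18 at 1 d (2.19-fold lower, adjusted p = 0.0861), and lost its call without 4 d replicate 1. The helicase subunit MCM6 had a log2 ratio of −1.47 and cyclin8 of −1.03, each kept in 2 fits. RBR1, a retinoblastoma-related protein that holds back the cell cycle, rose by 1.11 (kept in 1 fit). All 7 histones tested had a negative ratio, 3 of them fell, and the median was −0.94. Without 4 d replicate 3 only 1 fell. The histone H4 transcripts GRMZM2G181153_T01 and GRMZM2G149178_T01, of which the second was kept in 1 fit, share their gene names, and their probes may share signal from close copies. Gamma-tubulin (GRMZM2G085970_T01), which starts microtubules, was at −1.48, −1.71 and −2.27 at 4 d, and at −0.55, −0.26 and −0.29 at 1 d (2.74-fold lower, adjusted p = 0.0747).

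Of 24 ribosomal proteins 3 fell and 0 rose, among them RPS21 (log2 ratio −1.13, lost without 1 d replicate 3) and rpl39 (−1.36, kept in 1 fit and 0.54 with normexp), with a median of −0.43. The NOP56-like transcript GRMZM2G071873_T01, for a protein of ribosomal RNA processing, was at −0.35, −0.47 and −0.43 at 4 d, and at 1.46, 1.2 and 1.14 at 1 d (log2 ratio −1.68, adjusted p = 0.0542). The days are well apart for it. Among heat shock proteins both transcripts of the mitochondrial chaperonin HSP60 fell, with log2 ratios of −1.37 and −1.14, and the heat shock factor HSF6 rose by 1.43. Each of these 3 calls was kept in 2 fits. The sucrose synthase sus1 fell by 1.1 on the log2 scale (adjusted p = 0.117, kept in 1 fit).

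Listed glutathione S-transferases, protease inhibitors and defence transcripts that passed the threshold were higher at 4 d. Of 23 glutathione S-transferases, which couple glutathione to reactive compounds, 3 rose and 0 fell. gst7 (GRMZM2G028556_T01) was at 0.65, 2.76 and 1.39 at 4 d, and at −3.49, −0.62 and −2.70 at 1 d (14.6-fold, adjusted p = 0.0749). The proteinase inhibitor cystatin6 (GRMZM2G401328_T01) was at 0.48, −0.29 and 0.05 at 4 d, and at −3.07, −2.58 and −2.02 at 1 d (6.22-fold, adjusted p = 0.0774). At 0 d it was at −1.44, −0.24 and 0.75, partly as high as at 4 d. The other 8 protease inhibitors tested did not pass the threshold. Of 17 defence proteins 2 rose. The chitinase chiI (GRMZM2G145461_T01) was at 4.60, 3.97 and 4.43 at 4 d, and at 1.07, 1.19 and 3.09 at 1 d (5.87-fold, adjusted p = 0.0849). For the other, pr6 (GRMZM2G065585_T01), a spot was marked on each day and with these kept the days overlap. Its call was lost without 1 d replicate 2. Of 15 transcripts of protein degradation and autophagy 0 passed the threshold. Atg8b (GRMZM2G419694_T01), a protein of the autophagosome, was at 4.16, 3.84 and 4.43 at 4 d, and at 3.46, −0.05 and 2.40 at 1 d (log2 ratio 2.21, adjusted p = 0.224).

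The text of the study names 32 transcripts for T250 or for both lines, and 27 of these were tested between the days. Of the 27, 9 rose, 12 fell and 6 did neither. The study chose them on 4 d against 0 d with the same 4 d arrays, so that this count is not independent of that choice. Besides those given above, the ethylene response factor 1-like GRMZM2G080516_T01 was at −1.50, −1.23 and −1.99 at 4 d, and at −3.41, −9.07 and −5.38 at 1 d (log2 ratio 4.38, standard error 1.17, adjusted p = 0.112), where 1 d replicate 2 was not well above background, and the call was kept in 2 fits. The calcium pump transcript GRMZM2G476000_T01 was at −2.23, −2.17 and −2.29 at 4 d, and at −0.88, −0.76 and −1.03 at 1 d (log2 ratio −1.34, adjusted p = 0.0577). The kinase AC211175.3_FGT005 had −1.28 (adjusted p = 0.0663) and the calmodulin-binding activator GRMZM2G447551_T01 1.18 (adjusted p = 0.111, kept in 2 fits). The myb domain protein 112 transcript GRMZM2G134279_T01 had 1.82 (adjusted p = 0.109, kept in 2 fits). The UDP-glucosyl transferases GRMZM2G178209_T01 and AC199541.4_FGT004 had 1.53 (adjusted p = 0.0844) and 1.72 (adjusted p = 0.124, kept in 2 fits). From their rise over 0 d the study proposes that anthocyanin synthesis could be stimulated. The pectin methylesterase GRMZM2G138999_T01 had −1.37 (adjusted p = 0.119, kept in 1 fit), which normexp reversed. The APS kinase GRMZM5G845021_T01 and bHLH71 (GRMZM2G120021_T01) were among the 6, with log2 ratios of 0.50 and −0.37.

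In Lo5, with the array that goes against its label left out, the same step was compared by a test of the difference between the lines for 26699 transcripts. It passed the adjustment for 4 (0.015%), GRMZM2G370715_T01, GRMZM2G435445_T01, GRMZM2G022619_T01 and GRMZM2G001332_T01, all with a marked spot on T250 1 d replicate 1. The XTH32 transcript GRMZM2G388684_T01 came closest among the transcripts named here, with a log2 ratio of −2.07 in T250 and 1.26 in Lo5 (difference −3.33, adjusted p = 0.067). For nrt2.2 the log2 ratio was −5.54 in T250 and −2.08 in Lo5 (adjusted p of the difference 0.823), and for GRMZM2G078465_T01 it was 4.53 in T250 and 2.39 in Lo5 (0.781). A difference between the lines in these was not detectable with these arrays.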

How the data were processed

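Roots of T250 at 4 d and 1 d of growth without N were profiled on 1-colour Agilent maize arrays. For each array the authors deposited the processed intensity of each spot from Agilent Feature Extraction 10.5.1.1, with flags for uneven spots and for signal well above background. Levels were computed here as the log2 of this intensity less that of the 75th percentile of each array. Flagged spots were left out, and at least 2 unmarked spots were needed in each group. Of 39372 transcripts, 29784 passed the background flag on the 3 arrays of 4 d or the 3 of 1 d, 3417 of these were left out for marked spots and 26367 were tested with limma 3.58.1 (R 4.3.3) on the 9 T250 arrays in 3 groups, with Benjamini-Hochberg adjustment. The threshold of the methods (p of up to 0.01, log2 ratio of at least 1) was also used, since their t-test has no adjustment. Precision is limited by 3 arrays per day. The p-values measure the spread between samples of one day, shared over the 9 T250 arrays and thus including those of 0 d. The 1 d arrays lie on slides 4, 2 and 3 and the 4 d arrays on slides 3, 5 and 1. Shifts between slides and differences between the days can therefore not be fully told apart. The fit was also run on simulated data with independent noise for each transcript and array. These held no shifts of slides or whole arrays, so they cannot show how the fit handles such shifts.

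Transcripts were named by rule: up to 12 in each direction with unmarked, non-overlapping signal on all 6 arrays, first those past the adjustment and then described ones by lowest p, up to 4 in each direction below background on one day, those that the text of the study names, and up to 3 of each of 46 gene lists by lowest p. Others named were chosen after their values were seen. The lists use the symbols of a RefSeq gene table, which gave 18208 transcripts 1 gene and 2526 a name, so they miss unnamed family members. Descriptions come from the tables of the study, which cover 899 of the transcripts on the array. Those tables hold transcripts that the study called against 0 d, in part with the same 4 d arrays. Transcripts named because they carry a description are therefore not chosen independently of these data. Members and lists were chosen with earlier results of these data known. Lo5 was fitted with T250 on 17 arrays. Replicate numbers were not used as pairs: the deviations of 4 d and 1 d arrays of one number correlated by 0.0621, −0.0421 and 0.0846.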

Additional observations from a re-analysis of the deposited data

Results flagged for a closer look

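The difference between the lines in the ratio of 4 d over 1 d passed the adjustment for 4 transcripts, each by a log2 difference of T250 minus Lo5. It was 11.51 for GRMZM2G370715_T01 (adjusted p = 0.00107), 5.56 for GRMZM2G435445_T01 (adjusted p = 0.00128), 6.16 for GRMZM2G022619_T01 (adjusted p = 0.0316) and 6.41 for GRMZM2G001332_T01 (adjusted p = 0.0316). In all 4 the unmarked 1 d arrays of T250 replicates 2 and 3 were low, while the marked spot of replicate 1 stood at 1.83, 2.07, 0.88 and 2.42, near the 4 d and 0 d arrays. For GRMZM2G370715_T01 these 1 d arrays and the Lo5 arrays of 4 d and 1 d, at −9.25 to −7.07, lay at or near background, so that its difference has no exact size. With marked spots kept 0 transcripts passed.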

How the results depend on the processing

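Against 19 calls after adjustment, the methods' t-test gave 6 (also on all transcripts with marked spots kept), limma on the 6 arrays compared 48, on all 18 arrays 601 and on 17 arrays 997, slide as a fixed block 0 and, added after seeing the data, as a random block 191, normexp 1, no filter on dim probes 4, well above background on all 6 arrays 37, marked spots kept 2, and both arrays that stand apart left out 200 (added after seeing the data). With 1 array left out the number ran from 0 to 182, and past the methods' threshold from 1013 to 1773. With the replicate number as a block 0 passed the adjustment and 1743 the methods' threshold, against 1627. The numbers were not taken as pairs, since those of 4 d and 1 d did not deviate together. Arrays of 0 d and 1 d with one number did (0.34, 0.146 and 0.238), and each such pair shares a slide. Past the methods' threshold the t-test gave 923, slide as a fixed block 873 and normexp 419. With the t-test 43 of the 120 called named transcripts lost the threshold. It was then passed by 0 members of the lists of nitrate transport, phosphate transporters, iron supply and defence proteins. In other lists 3 cytokinin transcripts rose and 3 ribosomal proteins fell. Only 1 slide holds both days (4 d replicate 1, 1 d replicate 3). Of 115 called named transcripts with a value in it, 36 moved by more than the replicate spread and 0 changed sign. The arrays of this slide are among those by which the transcripts were called, so the kept sign is no test of their direction. With slide as a fixed block 71 of 120 lost the threshold.

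For the difference between the lines (4 calls), all 18 arrays gave 1, the replicate block 2, marked spots kept 0, and 1 array left out 2 to 173, the highest without T250 1 d replicate 1 and 17 without Lo5 1 d replicate 2.

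Of the 120 called named transcripts, 14 changed sign, all with normexp: GRMZM2G451037_T01 0.20, GRMZM2G455564_T01 0.34, GRMZM2G150731_T01 0.35, GRMZM2G101117_T01 0.53, AC209819.3_FGT003 0.24, AC205057.3_FGT004 0.58, GRMZM2G305080_T01 0.53, AC197705.4_FGT008 0.25, GRMZM2G138999_T01 0.59, GRMZM2G096958_T01 0.51, GRMZM2G084799_T01 0.09, GRMZM2G069047_T01 0.35, GRMZM2G122537_T01 0.04 and GRMZM2G100467_T01 0.54. The median over all transcripts was then 0.38. The cause was not tested.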
